A study of Arabidopsis thaliana with 3 samples.

Results

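The cover of 7 annotated loci of 5 Arabidopsis thaliana transposons by 2 heterochromatin histones was measured, out of 37899 nuclear genes: the COPIA93 retrotransposon copies EVD (AT5G17125) and ATR (AT1G34967), the copia retrotransposon Ta3 (AT1G37110), the VANDAL21 DNA transposon Hiun (AT2G23480, AT2G23490 and AT2G23500) and the Mutator-like DNA transposon AtMu1 (AT4G08680). They were listed by name as elements set free when the chromatin remodeller DDM1 is lost, a choice made with earlier results of these data known. For each locus the share of the body, of its ends and interior and of 2 kb on each side that lay in enriched regions was measured. The material was leaf tissue of plants 2 to 3 weeks old, with chromatin cut by micrococcal nuclease and pulled down with antibodies against the histone variant H2A.W.6 (1 library) or H2A.W.7 (1 library), and 1 control library was shared. The labels give neither genotype nor treatment, and none of the 3 libraries is labelled as a ddm1 mutant, so release of the elements was not measured and the name of the set could not be checked here.

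Copia elements move through an RNA copy that is reverse transcribed and inserted elsewhere, whereas VANDAL and Mutator-like elements move as DNA cut by a transposase. In Arabidopsis such elements are kept silent in heterochromatin by DNA methylation, by methylation of histone H3 on lysine 9 and by nucleosomes that carry H2A.W. DDM1 is known to be needed for DNA methylation of heterochromatic transposons and for the deposition of H2A.W. EVD and its near-identical sister ATR are known for new insertions in lines derived from DNA methylation mutants, Hiun for encoding an anti-silencing protein, AtMu1 for mobilisation in ddm1 plants, and Ta3 mainly as a marker whose transcripts appear when silencing is lost.

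The deposited lists hold positions of enriched regions only, 18107 with H2A.W.6 against 25393 with H2A.W.7, without heights or read counts. The depth is therefore unknown. Each variant has 1 library, so differences between them could not be set against replicate error and carry no p-value. EVD and Hiun lie in the chromosome arms as the submitters split them, and ATR, Ta3 and AtMu1 in the centromeric part. All 7 loci are listed as pseudogenes in the annotation used, so other pseudogenes serve as their comparison. That annotation marks no transposons, so the ends of the elements themselves could not be placed. Ends, edges and flanks below are those of the annotated bodies, and the flanks may hold sequence of the element. How reads that match several copies were placed is not given in the sources used here, so cover of EVD and of ATR cannot be assigned to either copy alone.

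All 7 loci had at least 50% of the body in H2A.W.6 regions, and 3 of 7, the Hiun loci, had as much in H2A.W.7 regions. For H2A.W.6 this limit was passed by 12.9% of all nuclear genes, 93% of centromeric pseudogenes and 57% of arm pseudogenes. For H2A.W.7 it was passed by 11.3% of all nuclear genes, 65.9% of centromeric pseudogenes and 58.4% of arm pseudogenes. The median body share over the 7 loci was 87.6% with H2A.W.6 and 43.3% with H2A.W.7. Median shares of centromeric pseudogenes were 98.3% and 67.3%, and those of arm pseudogenes 62.4% and 63.1%, with H2A.W.6 and H2A.W.7 in that order. Of the 20684 bp of the 7 bodies together, 18645 bp (90.1%) lay in H2A.W.6 regions and 9405 bp (45.5%) in H2A.W.7 regions. With the Hiun loci taken as 1 element, 1 of 5 elements passed the limit with H2A.W.7, so the count rests on Hiun.

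**Figure D1:**
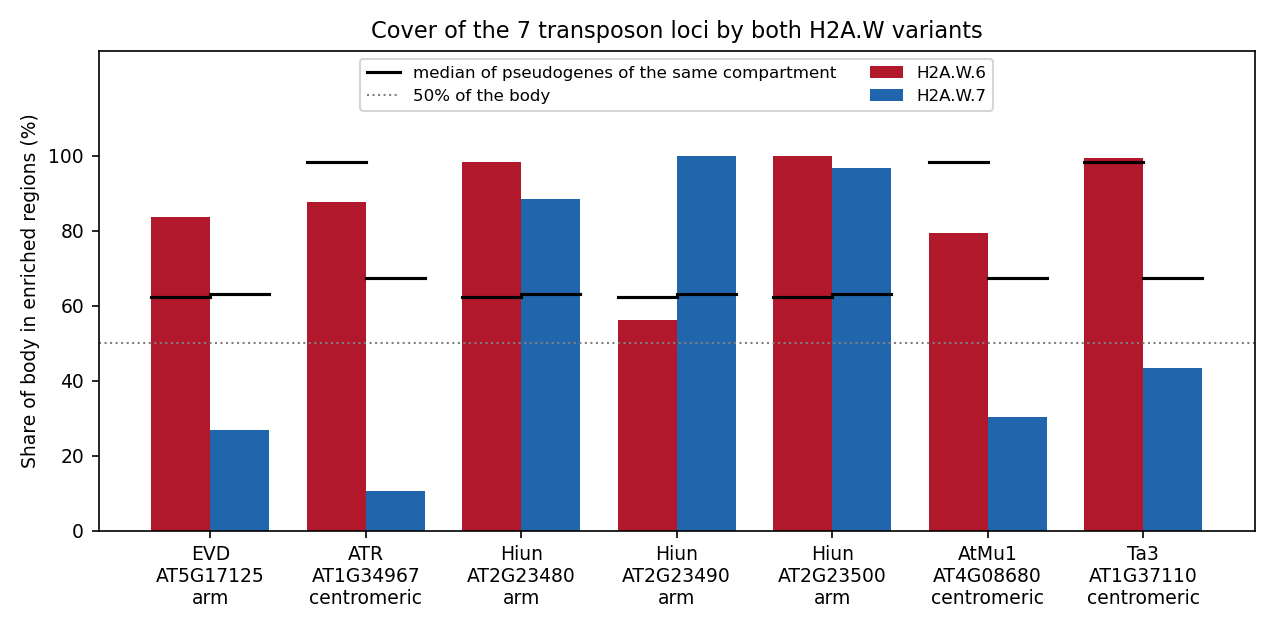
Share of each annotated body in enriched regions (%), with H2A.W.6 left of H2A.W.7 at each locus and 1 library per variant. Black lines give the medians of pseudogenes of the same compartment and the dotted line the limit of 50%. All 7 H2A.W.6 bars pass the limit, and among H2A.W.7 bars only those of the 3 Hiun loci do.

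The share was larger with H2A.W.6 than with H2A.W.7 at 6 of 7 loci. The same held for 9.93% of all nuclear genes, most of which had neither variant, for 79% of centromeric pseudogenes and for 34% of arm pseudogenes. Among pseudogenes of 2 to 5 kb, a length closer to that of the loci, the shares were 89% in the centromeric part and 51.8% in the arms. Ordered by the difference, H2A.W.6 minus H2A.W.7, the loci ran from ATR (77.1 percentage points) through EVD (56.9), Ta3 (56.1), AtMu1 (49.1), AT2G23480 (9.84) and AT2G23500 (3.18) to AT2G23490, where it was -43.8 points. The 4 loci outside Hiun thus all had larger differences than the 3 inside it, which themselves lay far apart, from 9.84 to -43.8 points. Neighbours in this order such as EVD and Ta3 differed by less than a point. Merging regions of a library across gaps of up to 1000 bp left 3 of 7 loci with a larger H2A.W.6 share, EVD, ATR and AtMu1, and 4 with equal shares.

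In the 3 copia bodies, 90.1% of the bases lay in H2A.W.6 regions and 26.6% in H2A.W.7 regions. In the 4 DNA transposon bodies, the shares were 90.2% with H2A.W.6 and 74.4% with H2A.W.7. The H2A.W.7 share of the DNA transposons came from Hiun, since AtMu1, at 30.3%, lay inside the range of the copia loci, 10.5% to 43.3%. EVD is the only copia element in the arms, Hiun the only DNA transposon there and AtMu1 the only DNA transposon in the centromeric part. With so few elements, effects of kind and of place on the chromosome were not tested.

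EVD, on the arm of chromosome 5, was covered by H2A.W.6 over most of its body and by H2A.W.7 only inside it. H2A.W.6 covered 3535 of its 4227 bp (83.6%) and H2A.W.7 covered 1130 bp (26.7%). The H2A.W.6 cover came from 5 regions, the longest at chromosome 5, 5632936 to 5634700 (TAIR10), which is 1765 bp long. The H2A.W.7 cover came from 2 regions, 5631311 to 5631570 and 5632951 to 5633820 on the same chromosome. In the outer 500 bp at the 2 ends, H2A.W.6 covered 77.4% at the low-coordinate end and 87.2% at the other, and H2A.W.7 covered 0% at both. The interior had 84.0% with H2A.W.6 and 35.0% with H2A.W.7. Of 758 other arm pseudogenes of any length, 742 (97.9%) had a smaller difference between the variants than EVD. The median difference was 0 points over all arm pseudogenes and 1.10 over those of 2 to 5 kb, among which no rank was taken.

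ATR, in the centromeric part of chromosome 1, has a body of the same length, and its little H2A.W.7 cover also lay outside both annotated ends. H2A.W.6 covered 3702 bp (87.6%) and H2A.W.7 covered 445 bp (10.5%), which is a single region, chromosome 1, 12757256 to 12757700. H2A.W.6 covered 100% of both ends and 83.7% of the interior. H2A.W.7 covered 0% of both ends and 13.8% of the interior. All 445 bp with H2A.W.7 also had H2A.W.6, and 525 bp had neither. Of 3152 other centromeric pseudogenes of any length, 248 (7.87%) had a smaller H2A.W.7 share and 3022 (95.9%) a smaller difference. The median difference was 22.0 points over all centromeric pseudogenes and 30.2 over those of 2 to 5 kb, among which no rank was taken. Pseudogenes of 2 to 5 kb with H2A.W.7 at 0% of both ends and above 0% of the interior were also counted. They numbered 19 of 1349 in the centromeric part (1.41%) and 5 of 313 in the arms (1.60%). This count was made after the EVD and ATR values were seen and includes both copies. The median H2A.W.7 share of pseudogenes of that length was 59.6% in both compartments, above those of EVD and ATR. They were not matched for cover, so how common such free ends are at low H2A.W.7 cover was not tested.

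Because EVD and ATR are equally long, their bodies were laid over each other base by base. The annotation used gives no strand, so both directions are given. With H2A.W.6, 3103 bp were covered in both copies in the same direction and 3010 bp with ATR reversed. With H2A.W.7, 0 bp were covered in both copies in the same direction and 178 bp with ATR reversed, of 1130 bp in EVD and 445 bp in ATR. As listed, the H2A.W.7 regions of the copies thus lay mostly at different places of the body. Since reads that match both copies cannot be assigned to either alone, a difference between the copies themselves was not shown.

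Ta3, in the centromeric part of chromosome 1, was almost wholly in H2A.W.6 regions and had scattered H2A.W.7 regions. H2A.W.6 covered 4046 of 4071 bp (99.4%), and the longest stretch left out was 10 bp. H2A.W.7 covered 1761 bp (43.3%) in 6 regions of 205 to 675 bp, with 890 bp as the longest stretch left out. Its ends had 99.0% with H2A.W.6 and 47.6% with H2A.W.7, and its interior 99.5% and 41.8%. Of the H2A.W.7 bases, 99.7% also had H2A.W.6, so Ta3 held 5 bp with H2A.W.7 alone. Its H2A.W.6 share was above that of 58.9% of the other centromeric pseudogenes of any length and its H2A.W.7 share above that of 27.8%.

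**Figure D2:**
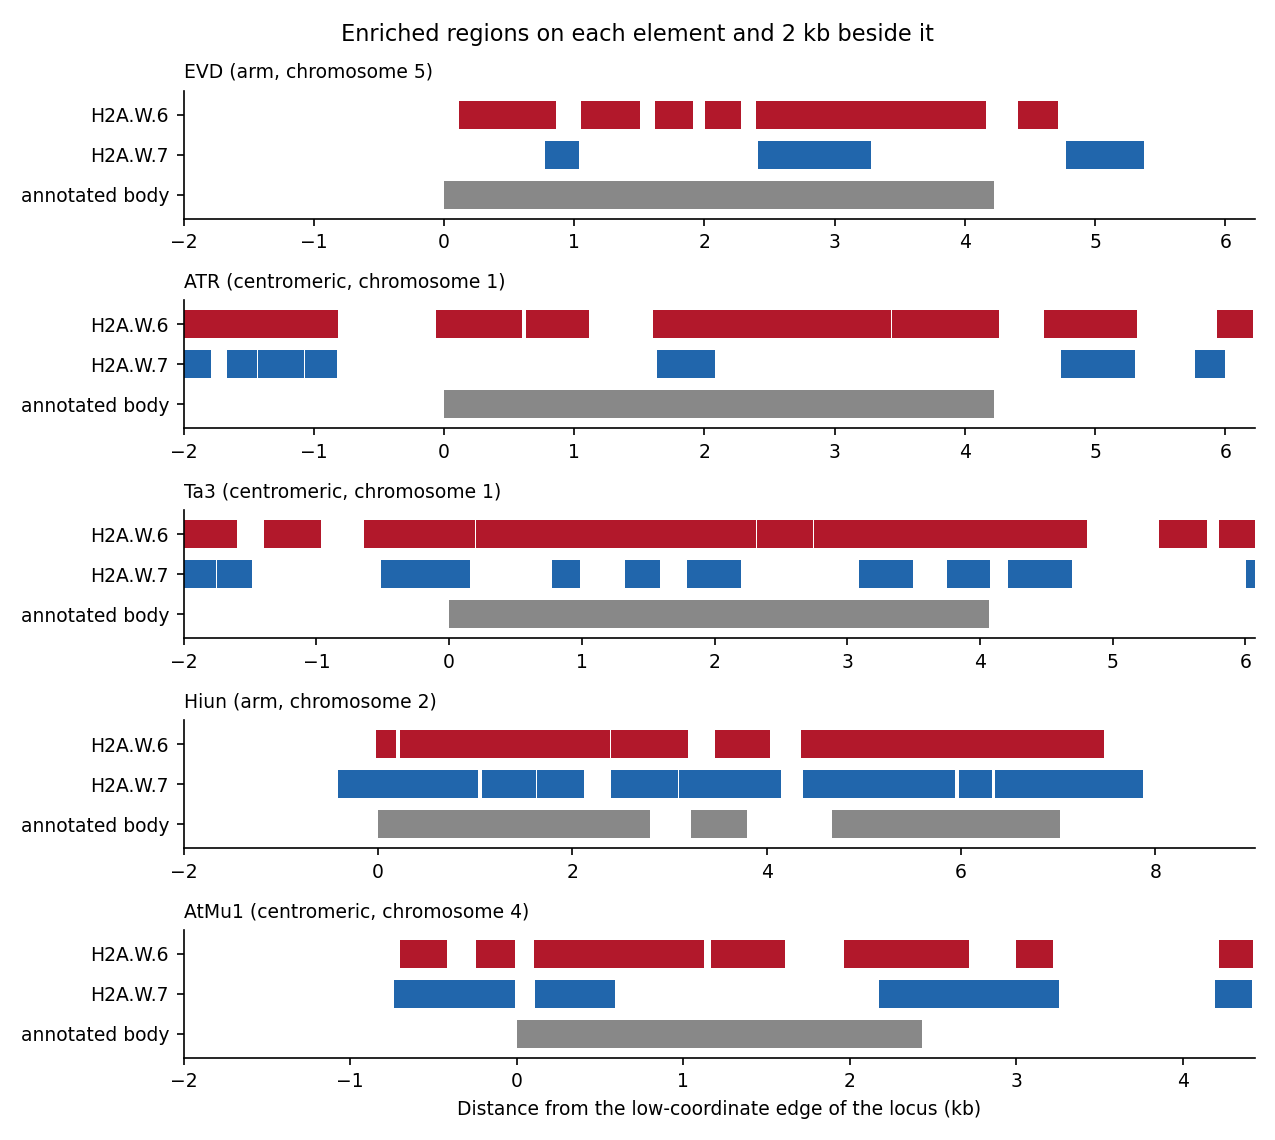
Enriched regions of H2A.W.6 (upper row) and H2A.W.7 (middle row) over the annotated bodies (lower row) of each element, by distance in kb from the low-coordinate edge. Breaks of 5 or 10 bp between neighbouring regions show as hairlines or not at all. H2A.W.7 leaves the ends of the annotated EVD and ATR bodies free and spans nearly all of the annotated Hiun loci.

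Hiun, on the arm of chromosome 2, was the element where both variants covered nearly the whole span. Over the 7022 bp from the start of its first locus to the end of AT2G23500, H2A.W.6 covered 6382 bp (90.9%) and H2A.W.7 covered 6392 bp (91.0%). AT2G23480 had 98.4% with H2A.W.6 and 88.6% with H2A.W.7, and AT2G23500 had 100% and 96.8%. AT2G23490, a body of 576 bp, had 56.2% with H2A.W.6 and 100% with H2A.W.7, the only locus of the 7 where H2A.W.7 covered more. The 252 bp it lacked with H2A.W.6 lie between the regions that end at 10005085 and start at 10005361 of chromosome 2. Between the loci, the 420 bp from AT2G23480 to AT2G23490 had 94.5% with H2A.W.6 and 98.8% with H2A.W.7, and the 875 bp from AT2G23490 to AT2G23500 had 63.4% and 73.7%. H2A.W.6 regions numbered 5, the longest 2765 bp, and H2A.W.7 regions numbered 8, the longest 1565 bp.

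H2A.W.7 reached further past the edges of the annotated Hiun loci than H2A.W.6, and how much of this lies inside the element is not known. The outermost regions ran 22 bp and 96 bp beyond the low and high edge with H2A.W.6, and 412 bp and 846 bp with H2A.W.7. A further H2A.W.6 region of 345 bp began 101 bp beyond the high edge. On the low side the next region lay 35942 bp away with H2A.W.6 and 19437 bp away with H2A.W.7.

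AtMu1, in the centromeric part of chromosome 4, had H2A.W.7 at its ends and little of it in between, the opposite of EVD and ATR. H2A.W.6 covered 1932 of 2432 bp (79.4%) and H2A.W.7 covered 737 bp (30.3%). At the ends H2A.W.6 covered 86.2% and H2A.W.7 covered 64.7%. In the interior the shares were 74.7% with H2A.W.6 and 6.28% with H2A.W.7. All of the H2A.W.7 bases also had H2A.W.6. A stretch of 1585 bp had no H2A.W.7, and the longest without H2A.W.6 was 355 bp. The H2A.W.7 region at the high-coordinate end, chromosome 4, 5544606 to 5545685, ran 823 bp past the locus.

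In 6 loci long enough to be split into ends and interior (1500 bp or more), H2A.W.6 was higher at the ends in 2, ATR and AtMu1, and H2A.W.7 in 4, AtMu1, Ta3 and the Hiun loci AT2G23480 and AT2G23500. Ends above interior were found with H2A.W.6 in 46.5% of centromeric and 36% of arm pseudogenes of that length, and with H2A.W.7 in 62.3% and 55.5%. At the remaining 4 loci for H2A.W.6, EVD, Ta3 and AT2G23480 had lower ends and AT2G23500 had 100% throughout. The gap was under 5 points with H2A.W.6 in EVD, Ta3 and AT2G23480, and its sign in EVD and Ta3 turned when the shorter regions were left out. The H2A.W.6 gap of AtMu1, 11.5 points, became -6.50 with the genes moved down by 100 bp and -13.7 with ends of 1000 bp. With H2A.W.7 the gaps were -35.0 points in EVD, -13.8 in ATR, 58.4 in AtMu1, 5.76 in Ta3, 5.54 in AT2G23500 and 2.72 in AT2G23480, and those of Ta3 and AT2G23480 also turned in some alternatives.

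**Figure D3:**
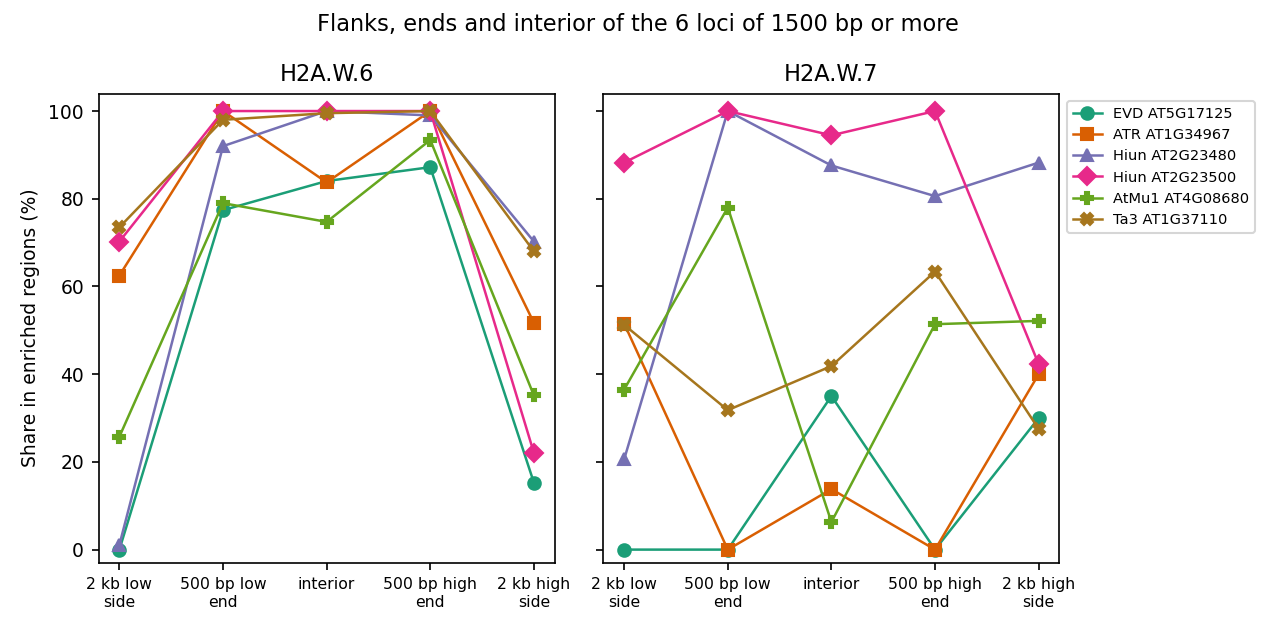
Share in enriched regions (%) of the 2 kb on the low-coordinate side, the outer 500 bp of that end, the interior, the outer 500 bp of the other end and the 2 kb beyond it, for the 6 loci of 1500 bp or more. With H2A.W.6 every locus is higher inside than beside the body, whereas with H2A.W.7 EVD and ATR have 0% at both ends. The flanks of the Hiun loci include parts of the other Hiun loci.

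Bases of the 7 bodies were mostly shared or held by H2A.W.6 alone. Both variants were found on 8933 bp (43.2%), H2A.W.6 alone on 9712 bp (47.0%), H2A.W.7 alone on 472 bp (2.28%) and neither on 1567 bp (7.58%). The bodies of all centromeric pseudogenes had 58.5% with both, 30.1% with H2A.W.6 alone, 1.94% with H2A.W.7 alone and 9.45% with neither. Those of arm pseudogenes had 47.5%, 12.8%, 8.60% and 31.1% in the same classes. Of the 18645 bp with H2A.W.6, 47.9% also had H2A.W.7, while 8933 of the 9405 bp with H2A.W.7 also had H2A.W.6. The 472 bp with H2A.W.7 alone lay in AT2G23490 (252 bp), EVD (175 bp), AT2G23480 (40 bp) and Ta3 (5 bp).

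**Figure D4:**
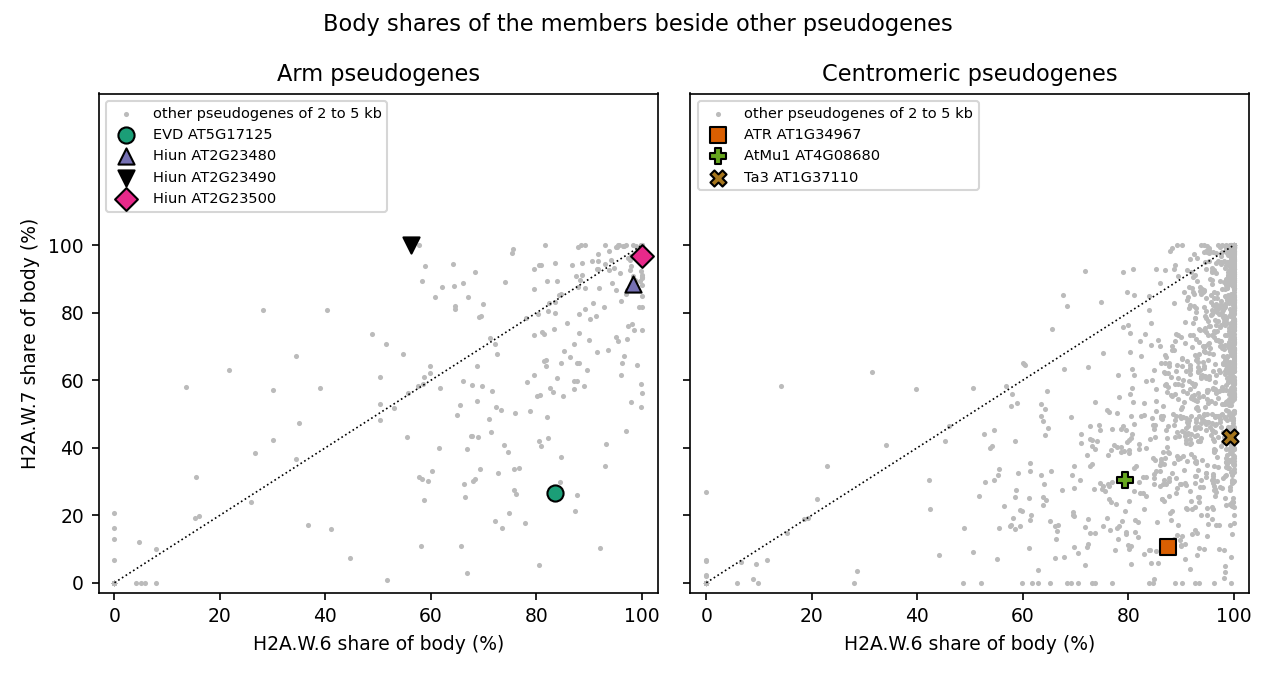
Body share with H2A.W.7 against that with H2A.W.6 (%) for the 4 arm loci and the 3 centromeric loci, over other pseudogenes of 2 to 5 kb (grey). Points below the dotted line have the larger share with H2A.W.6. EVD lies at 83.6% and 26.7% and ATR at 87.6% and 10.5%, well below the line, and AT2G23490, which is shorter than 2 kb, lies above it at 56.2% and 100%.

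Beside the loci, cover by H2A.W.6 was lower than in the body in 6 of 7, and cover by H2A.W.7 in 5 of 7. Body above flanks was found with H2A.W.6 in 78% of centromeric and 63.5% of arm pseudogenes, and with H2A.W.7 in 60.5% and 63.4%. The exception with H2A.W.6 was AT2G23490, whose flanks hold other parts of Hiun. With H2A.W.7 the exceptions were ATR, with 10.5% in the body and 45.8% in the flanks, and AtMu1, with 30.3% and 44.3%, whose gap turned with flanks of 5 kb. Ta3 had 43.3% in the body and 39.4% in the flanks with H2A.W.7, a gap that turned with flanks of 1 kb.

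EVD and Hiun stood as islands of cover in arms with little of either variant. In the 2 kb on each side, EVD had 7.62% with H2A.W.6 and 15.0% with H2A.W.7, and Hiun had 11.6% and 31.5%. In the 50 kb on each side, EVD had 2.54% and 4.80%, and Hiun had 1.49% and 6.45%. Below the low edge of EVD the next H2A.W.6 region lay 36762 bp away and the next H2A.W.7 region 4917 bp away. The median arm pseudogene had 4.26% with H2A.W.6 and 8.21% with H2A.W.7 in windows of 50 kb, so sparse surroundings are common to arm pseudogenes.

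The centromeric elements differed in their surroundings. Ta3 had 88.8% with H2A.W.6 and 51.8% with H2A.W.7 in the 10 kb on each side. ATR had 26.1% and 22.9% in the same window, and AtMu1 had 26.6% and 37.5%. The median centromeric pseudogene had 78.8% with H2A.W.6 and 52.5% with H2A.W.7. In windows of 50 kb, ATR had 52.1% and 41.9%, AtMu1 49.6% and 47.3%, and Ta3 62.7% and 39.2%. ATR and AtMu1 thus lay in locally sparse stretches of the centromeric part. There, H2A.W.6 cover of the element was above that of the sequence within 10 kb. Both lie towards a border of that part. On chromosome 1 it starts at 12.4 Mb, with ATR regions from 12755556, and on chromosome 4 it ends at 6.1 Mb, with AtMu1 regions to 5545685. Pseudogenes at a like distance from the border were not compared.

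**Figure D5:**
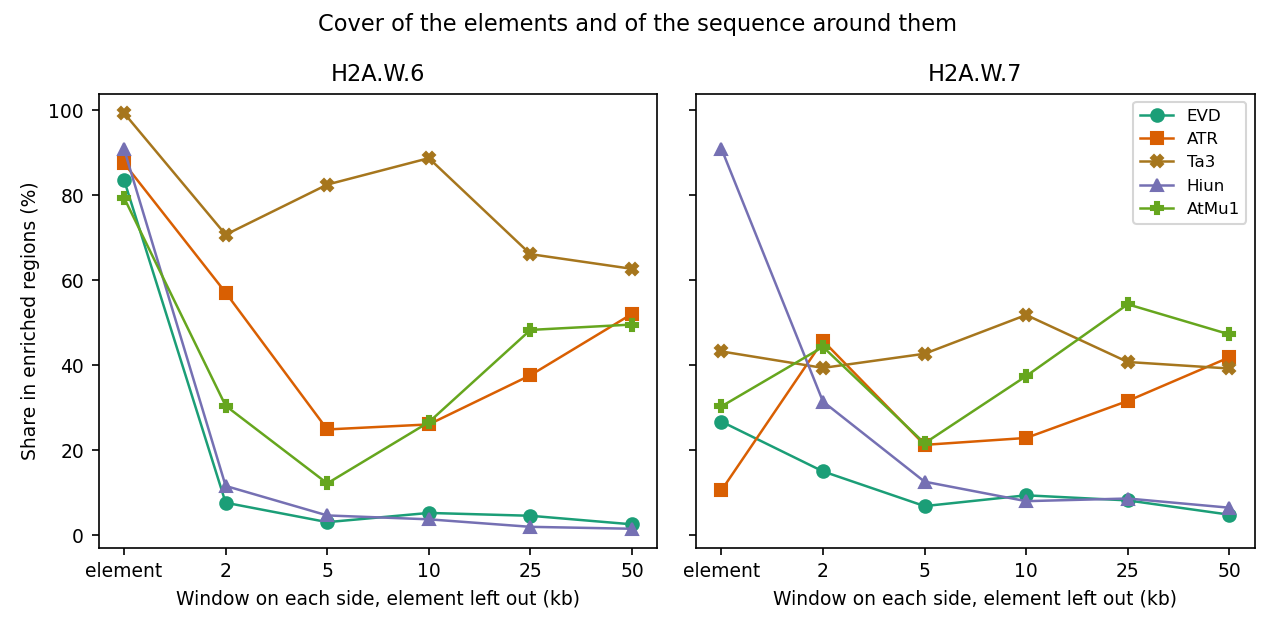
Share in enriched regions (%) of the annotated span of each element and of 2, 5, 10, 25 and 50 kb on each side with that span left out. The wider windows include the narrower ones, and all may hold unannotated parts of the element. With H2A.W.6 all 5 elements lie above their surroundings in every window, and with H2A.W.7 Hiun and EVD do, at 91.0% and 26.7% against 6.45% and 4.80% in 50 kb.

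The 3 nearest annotated genes on each side of each element were examined as neighbours. Around EVD all 6 neighbours, from AT5G17100 to AT5G17150, are protein-coding and had 0% with both variants. Around Hiun all 6 are protein-coding too and had 0% with H2A.W.6. With H2A.W.7, RUS4, a gene of the ROOT UV-B SENSITIVE family that lies 383 bp from Hiun, had 1.15%, AT2G23530 had 1.81%, and XLG1, an extra-large G protein gene, and SDT, an acyltransferase gene, had 0%.

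Around ATR the nearest neighbours were the pseudogene AT1G34904, with 91.9% in H2A.W.6 regions and 81.1% in H2A.W.7 regions, and TT1, a zinc finger regulator of seed coat pigment, with 17.1% and 20.7%. Of the others beside ATR, AT1G34844 and AT1G34842 had 0% with both variants, and AT1G34792 and AT1G06797 had at least 68.1% with both. Around AtMu1, SAH7 and AT4G08690 had 0% with both. The nearest gene on the other side, AT4G08670, had 0% with H2A.W.6 and 18.1% with H2A.W.7. The remaining neighbours of AtMu1, AT4G08660, AT4G08657 and AT4G08691, had at least 94.8% with both. Around Ta3, 5 of 6 neighbours had at least 50% with H2A.W.6, among them AT1G37100 with 96.3%, against 28.8% with H2A.W.7. Over all 30 neighbours, 11 passed 50% with H2A.W.6 and 10 with H2A.W.7, where 12.9% and 11.3% of all nuclear genes did. All that passed lie beside the centromeric elements. Of the 8 pseudogenes among the neighbours, 7 passed with H2A.W.6 and 5 with H2A.W.7. In the centromeric part, 93% and 65.9% of all pseudogenes did. Among the 19 protein-coding ones, 3 did with each variant, where 3.24% and 3.54% of all protein-coding genes did. The 3 are the same genes with both variants, AT1G34792, AT4G08691 and AT1G37113, and all lie beside the centromeric elements. The share among centromeric protein-coding genes alone was not taken.

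Genes of the silencing machinery and other transposon genes were measured for comparison. None of 14 silencing genes, all in the arms, had any base of the body in regions of H2A.W.6 or H2A.W.7. The median over all protein-coding genes was likewise 0% with both variants, and 3.24% and 3.54% of them passed 50%. The share of protein-coding genes with any covered base was not counted. The 2 kb flanks of the 14 genes had at most 1.4% with H2A.W.6, at ATXR6, and 20.4% with H2A.W.7, at MET1. The silencing genes include DDM1 itself (AT5G66750), the maintenance DNA methyltransferase MET1, the chromomethylases CMT2 and CMT3, the H3 lysine 9 methyltransferase gene SUVH4, the histone deacetylase gene HDA6, and the largest-subunit genes of RNA polymerases IV and V. Of 5 further transposon genes, all pseudogenes and all but AT5G44925 centromeric, 5 passed 50% with H2A.W.6 and 3 with H2A.W.7. That limit was passed by 93% of centromeric and 57% of arm pseudogenes with H2A.W.6, and by 65.9% and 58.4% with H2A.W.7. AT2G12210 had 99.5% with H2A.W.6 and 16.3% with H2A.W.7, a gap of the kind seen in ATR and EVD. AT2G13940 had 99.9% and 97.3%, AT5G44925 91.6% and 92.9%, AT4G03650 100% and 99.2%, and AT2G15810 72.8% and 46.5%.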

How the data were processed

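The authors deposited 4 lists of enriched regions (per immunoprecipitation, 1 for arms and 1 for the centromeric part) that hold a chromosome, start and end and no score. Per the submitters' processing notes the build is TAIR10 and bedtools was used; which aligner, caller and threshold were used, and how the control entered, is not given in the sources used here. Deeper sequencing or a laxer threshold in 1 library could raise its shares. The control library was not analysed here.

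Arm and centromeric lists of a library were joined, and covered bases were summed with NumPy 2.4.6 in Python 3.11.15, after a test on simulated regions. Bodies came from a RefSeq gene table of TAIR10.1 (38312 genes, 37899 nuclear with coordinates, 7 of 7 loci matched), which lacks strand, exons and transposon annotation. As its name differs from TAIR10, no gene coordinate is printed. Moving it by up to 10000 bp in steps of 500 bp, H2A.W.6 covered more arm pseudogene bases unshifted than at any shift on 5 of 5 chromosomes. A gene was called centromeric when its midpoint lay between the borders of the lists, the only multiples of 100 kb between arm and centromeric regions. Ends were 500 bp, flanks 2 kb. Measured were all members, the 3 nearest genes on each side of each element and 2 fixed lists of 14 and 5 genes. Not all neighbours and silencing genes are named in the text. The members and lists were chosen with earlier results of these data known. Alternatives changed the list, the gaps merged, the limit, the windows and the gene positions.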

Additional observations from a re-analysis of the deposited data

How the results depend on the processing

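No paired analysis was possible because each variant has 1 library. Of 95 alternative values for 13 counts and medians, 81 stayed within 1.5 times the value given and 14 moved further. Some of the 81 could not move, such as 7 of 7 loci with H2A.W.6 under a laxer limit. Likewise 0 silencing genes could not become fewer under a stricter limit, so the tally is no measure of stability. With a limit of 1 bp or 25% of the body, 7 or 6 loci passed with H2A.W.7, and with 90%, 3 passed with H2A.W.6. With 1 bp, 5 of the further transposon genes passed with H2A.W.7. With merging within 1000 bp, 3 loci had a larger share with H2A.W.6, the H2A.W.7 median was 100%, and ends were above interior in 0 loci with H2A.W.6 and 1 with H2A.W.7. With merging within 200 bp, H2A.W.7 ends were above interior in 2. H2A.W.6 ends were above interior in 4 loci with regions at or above the median length, in 1 with genes moved down by 100 bp and in 1 with ends of 250 bp. With Hiun as 1 element, 1 element passed with H2A.W.7 and 3 had H2A.W.7 body above flanks.

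Of 334 values at single loci, 171 stayed close (a share inside its Wilson interval over bases, a difference inside 5 points), 45 shares and 90 differences moved further, 11 differences became 0, and 17 turned sign. The Wilson interval treats neighbouring bases as independent, so it is a yardstick only and measures no replicate error. Ends minus interior with H2A.W.6 became 15.8 points in EVD and 27.0 in Ta3 with regions at or above the median length, 0.65 in EVD with trimmed regions, 0.80 in EVD, 0.22 in Ta3 and -13.7 in AtMu1 with ends of 1000 bp, and -6.50 and -0.55 in AtMu1 with genes moved down by 100 bp and ends of 250 bp. With H2A.W.7 it became -0.76 in Ta3 with merging within 200 bp, -3.94 in Ta3 with genes moved up, and -12.9 and -8.10 in AT2G23480 with genes moved down and ends of 1000 bp. Body minus flanks with H2A.W.7 became -27.1, -0.73, -0.93 and -6.69 in Ta3 with regions at or above the median length, trimming, genes moved up and flanks of 1 kb, and 8.67 in AtMu1 with flanks of 5 kb. The cause was not tested. Depth is unknown, and regions under 200 bp are not in the lists.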
